A study of Mus musculus with 10 samples.

Results

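The homeodomain transcription factors of somatosensory neurons were followed here in trigeminal ganglia of mouse embryos with and without Prdm12. The 9 genes, taken by symbol and Ensembl ID, were the LIM homeodomain genes Isl1 and Isl2, the POU homeodomain genes Pou4f1, Pou4f2 and Pou4f3, the TLX genes Tlx1 and Tlx3, the paired-type gene Drgx (listed under its older symbol Prrxl1) and the HMX gene Hmx1. All 9 of 9 were found among the 55414 gene IDs of the count tables, and all 9 passed the filter on low counts, which kept 18005 genes. RNA came from microdissected trigeminal ganglia, the cranial ganglia of facial touch, pain and temperature, of C57Bl6 embryos at E13.5. One group of 5 libraries was labelled Prdm12-/- and the other group of 5 Prdm12+/+, and both groups carried the label Sox10 Venus+. No cell sorting is named in the labels. They leave unsaid what the mutant allele lacks and whether libraries are of separate embryos. The p-values therefore measure the spread between these libraries, which may be partly technical. Titles start with F in the knockout group and K in the wild type, and whatever these letters stand for cannot be told apart from genotype.

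Homeodomain factors bind DNA through a conserved helical domain and act in combinations that give neurons their identity. In sensory ganglia Isl1 and Pou4f1 are switched on as neurons leave the cell cycle, and together they close the neurogenic programme and open that of sensory differentiation. Tlx3 and Drgx are also active in the dorsal spinal cord neurons on which somatosensory axons end, and Drgx is needed for the proper wiring of nociceptive circuits. Prdm12 itself, a zinc finger gene of the PRDM family needed for nociceptor development, is not a homeodomain gene.

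The sequences just before the transcription start are shown for the genes whose within-family balance is compared further on, and for Tlx3, whose value depended most on a single library. They are the 250 bases before the start, 5′ to 3′ on the gene's strand, from RefSeq (GRCm38.p6), with the letters CCAAT (searched on both strands) in capitals. The windows are chr13:116309689-116309938 (minus strand) for Isl1, chr9:55540899-55541148 (plus) for Isl2, chr14:104468000-104468249 (minus) for Pou4f1, chr8:78436648-78436897 (minus) for Pou4f2 and chr11:33203589-33203838 (minus) for Tlx3.
Isl1: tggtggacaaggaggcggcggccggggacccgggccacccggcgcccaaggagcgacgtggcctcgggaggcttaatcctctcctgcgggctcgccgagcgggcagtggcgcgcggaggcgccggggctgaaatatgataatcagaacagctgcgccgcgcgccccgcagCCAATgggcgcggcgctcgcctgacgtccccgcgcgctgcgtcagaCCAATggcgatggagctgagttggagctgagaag
Isl2: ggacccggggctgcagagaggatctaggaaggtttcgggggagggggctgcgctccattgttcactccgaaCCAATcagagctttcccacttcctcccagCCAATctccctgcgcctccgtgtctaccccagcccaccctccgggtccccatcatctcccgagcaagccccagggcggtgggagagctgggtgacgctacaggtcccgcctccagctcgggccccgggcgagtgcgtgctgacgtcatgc
Tlx3: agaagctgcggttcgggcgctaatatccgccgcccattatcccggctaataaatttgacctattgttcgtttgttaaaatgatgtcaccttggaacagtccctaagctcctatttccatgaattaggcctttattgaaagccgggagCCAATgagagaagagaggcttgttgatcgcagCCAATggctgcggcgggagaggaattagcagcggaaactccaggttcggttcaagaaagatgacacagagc
Pou4f1: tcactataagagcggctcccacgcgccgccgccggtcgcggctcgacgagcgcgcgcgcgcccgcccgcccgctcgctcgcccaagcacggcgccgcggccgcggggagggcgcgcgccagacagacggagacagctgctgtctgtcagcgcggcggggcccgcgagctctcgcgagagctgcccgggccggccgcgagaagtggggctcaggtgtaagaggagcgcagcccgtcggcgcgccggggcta
Pou4f2: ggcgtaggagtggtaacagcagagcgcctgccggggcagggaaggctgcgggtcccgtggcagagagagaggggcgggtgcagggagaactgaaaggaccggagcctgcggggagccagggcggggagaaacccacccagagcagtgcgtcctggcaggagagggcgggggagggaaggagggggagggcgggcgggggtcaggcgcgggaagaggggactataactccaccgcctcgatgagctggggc
A window was used for 8 of the 9 genes, all but Pou4f3. Of these, 4 (Isl1, Isl2, Tlx1 and Tlx3) held CCAAT, against 33.8% of 32851 windows of the same length. Isl1, Isl2 and Tlx3 held it at 2 places each, and Pou4f1 and Pou4f2 did not hold it. The letters TGACGT were in the windows of Isl1 and Isl2 (6.47% of all windows) and CAGATG in that of Tlx1 (14.4%). TAATTA (4.84%), ATAATTAAT (0.259%) and TATAAA (12.4%) were in none of the 8, all searched on both strands. ATAATTAAT contains TAATTA, so these 2 searches overlap. These are matches of letters in short windows and nothing more.

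The shallowest libraries were knockout 49 (3258008 counts) and knockout 29 (13603690 counts), and the other 8 held 27308327 to 33556002. Values are CPM, counts scaled to the library total with TMM factors, and the lowest count behind any value of the 9 genes was 29 (Tlx1 in knockout 49). Prdm12 was at 8.74, 42.7, 10.1, 12.2 and 17.0 CPM in knockout 16, 29, 42, 49 and 50 and at 74.3 to 264 CPM in the wild type (log2 fold change -3.32, SE 0.49, adjusted p = 0.0156 with edgeR's quasi-likelihood test). Some libraries stood apart. Knockout 29 was the highest knockout library for 9 of the 9 homeodomain genes, and wild-type 32 and 35 were both above the other 3 wild-type libraries for 7 of the 9. In wild-type 32 and 35 the summed level of 5 mesenchyme markers was 490.1 and 695 CPM, against 1981 to 7233 CPM in the other 8 libraries, and the summed level of 11 general neuronal genes was highest (11256 and 11152 CPM, against 4473 to 9421 CPM). The part of tissue content in the values below was not tested.

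None of the 9 homeodomain genes passed the threshold of 0.05 on the adjusted p (edgeR's quasi-likelihood test, Benjamini-Hochberg over all genes), where 0.467% of all 18005 genes did. At an unadjusted p under 0.05, 5 of the 9 differed (13.1% of all genes did), 4 lower and 1 higher in the knockout, where 6.73% of all genes were lower and 6.40% higher. DESeq2 also called 0 of the 9 (2.88% of its tested genes; it gave no adjusted p for Tlx3). With limma voom and sample quality weights, which give less weight to libraries that fit the model poorly, 4 of the 9 were past the threshold (Isl1, Isl2, Pou4f1 and Hmx1, all lower). That fit called 13.0% of all genes. The median log2 fold change was -0.70 over the 9 genes and -0.03 over all genes. Knockout and wild-type libraries overlapped for all 9 genes; 4.21% of all tested genes had no overlap. Each library holds pooled RNA of many cells, in which fewer cells of a type and less RNA per cell cannot be told apart.

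**Figure D1:**
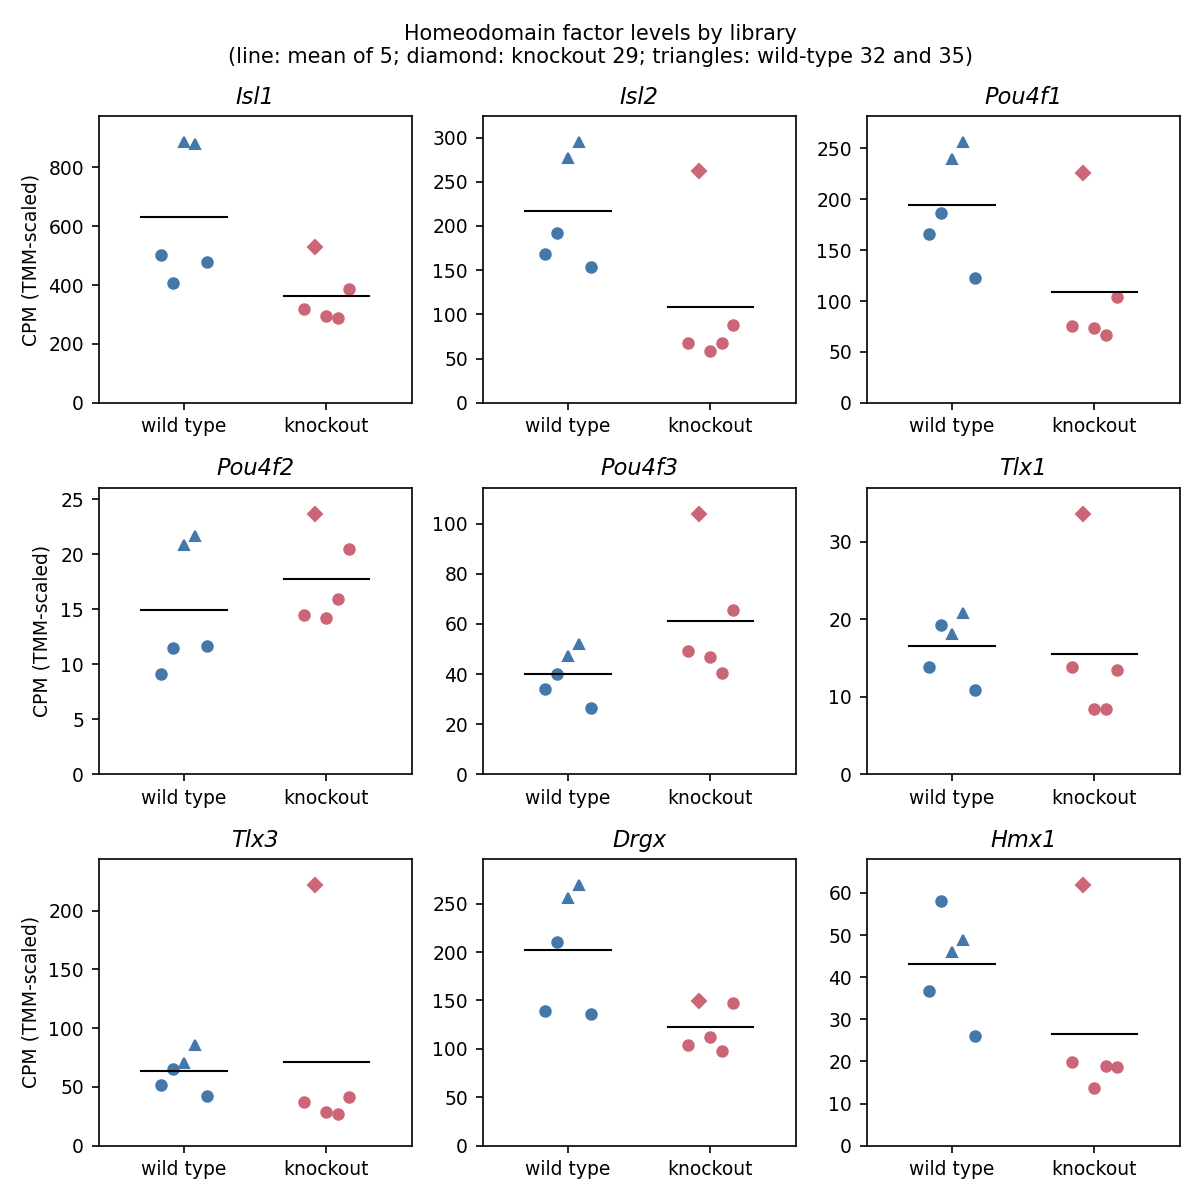
Levels of the 9 homeodomain genes (y axis, CPM) in each wild-type and knockout library (x axis), with the mean of 5 libraries as a line. Knockout 29 (diamond) is the highest knockout library in every panel, and for Tlx3 it stands at 222 CPM against at most 41.7 CPM in the other 4.

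Isl1, a LIM homeodomain gene active in all neurons of sensory ganglia, was the most abundant of the 9 per kilobase. Its levels were 318, 528, 296, 288 and 388 CPM in knockout 16, 29, 42, 49 and 50, and 501, 406, 885, 879 and 480 CPM in wild-type 22, 24, 32, 35 and 45. Only knockout 29 reached into the wild-type range, and wild-type 32 and 35 stood well above the other 3. The log2 fold change was -0.79 (SE 0.27, adjusted p = 0.250). Isl2, the second gene of the family, is known from sensory, motor and retinal neurons. It was at 67.5, 262, 58.1, 68.0 and 87.99 CPM in the knockout libraries, in the same order, and at 169, 192, 277, 295 and 154 CPM in the wild type. Thus 4 of the knockout libraries lay below every wild-type library, and knockout 29 lay among the highest. The log2 fold change was -0.996 (SE 0.41, adjusted p = 0.338), and without knockout 29 it was -1.59 (SE 0.24, adjusted p = 0.0181).

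Pou4f1, which with Isl1 drives the step from neurogenesis to sensory differentiation, followed Isl2 closely. It was at 75.4, 226, 73.5, 66.6 and 104 CPM in the knockout libraries and at 166, 187, 239, 256 and 123 CPM in the wild type. Again 4 of the 5 knockout libraries lay below all wild-type libraries (log2 fold change -0.83, SE 0.34, adjusted p = 0.339). Without knockout 29 the change was -1.24 (SE 0.24, adjusted p = 0.0566). Pou4f2, best known from retinal ganglion cells, was at 14.5, 23.7, 14.2, 15.9 and 20.5 CPM in the knockout and at 9.11, 11.5, 20.8, 21.6 and 11.7 CPM in the wild type. Its groups overlapped widely, with wild-type 32 and 35 high and the other 3 wild-type libraries below every knockout library (log2 fold change 0.25, SE 0.27, adjusted p = 0.700; without knockout 29, 0.15, SE 0.29, adjusted p = 0.863). Pou4f3, best known from the hair cells of the inner ear and also active in sensory neurons, was at 49.3, 104, 47.0, 40.2 and 65.5 CPM in the knockout. In the wild type it was at 34, 40.1, 47.1, 52.1 and 26.5 CPM. Its log2 fold change was 0.62 (SE 0.27, adjusted p = 0.360), so that the sign was opposite to that of Pou4f1. Without knockout 29 the log2 fold change of Pou4f3 was 0.38 (SE 0.22, adjusted p = 0.484).

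The balance within the POU4F family was compared inside each library, where scaling between libraries has no part. The ratio of Pou4f2 to Pou4f1 counts was 0.193, 0.105, 0.193, 0.239 and 0.196 in the knockout libraries and 0.0548, 0.0616, 0.0871, 0.0846 and 0.0953 in the wild type. Every knockout library was above every wild-type library, knockout 29 by the smallest margin. The ratio was 2.39-fold higher in the knockout (log2 difference 1.26; log2 ratio -2.48 ± 0.45 against -3.74 ± 0.35, SD, n = 5 each; exact two-sided permutation p = 0.00794, the smallest that 5 against 5 allow, and 0.0238 adjusted over the 3 ratios tested). Those 3 ratios were set with earlier results of these data known, which the adjustment does not cover. The ratio of Pou4f3 to Pou4f1, chosen after the values were seen, was 0.654, 0.461, 0.639, 0.604 and 0.627 in the knockout libraries. In the wild type it was 0.205, 0.215, 0.197, 0.203 and 0.216. The 5 wild-type libraries agreed closely although their levels of both genes varied more widely, and every knockout ratio was above all of theirs. The ratio was 2.86-fold higher in the knockout (log2 difference 1.52, log2 ratio -0.75 ± 0.21 against -2.27 ± 0.06, SD, n = 5 each). Because the ratio was picked for its values, its exact two-sided permutation p of 0.00794, not adjusted, is no independent support. With counts divided by exon length, Pou4f1 made up 64.1% to 67.6% of the family's summed signal in the wild type and 39.1% to 48.8% in the knockout. Pou4f3 made up 25.4% to 27.7% and 43.8% to 49.9%, and Pou4f2 5.41% to 8.91% and 7.46% to 13.8%. Inner ear hair cells also express Pou4f3, and the summed level of 5 inner ear markers was 38.2 to 68.4 CPM for the knockout (highest in knockout 16) against 34.9 to 42.6 CPM. Of these, the hair cell myosin gene Myo7a (adjusted p = 0.396) and Otof (adjusted p = 0.696) did not pass. Atoh1, which sets hair cell fate and is also active in the dorsal hindbrain, was too low to be tested, with 12.4 CPM in knockout 16 and at most 1.05 CPM in the other 9 libraries. Gfi1, a hair cell gene that depends on Pou4f3, had 23 counts in knockout 29 (1.81 CPM) and 1 to 11 counts elsewhere (at most 0.367 CPM). The part of such cells in the POU4F balance was not tested.

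**Figure D2:**
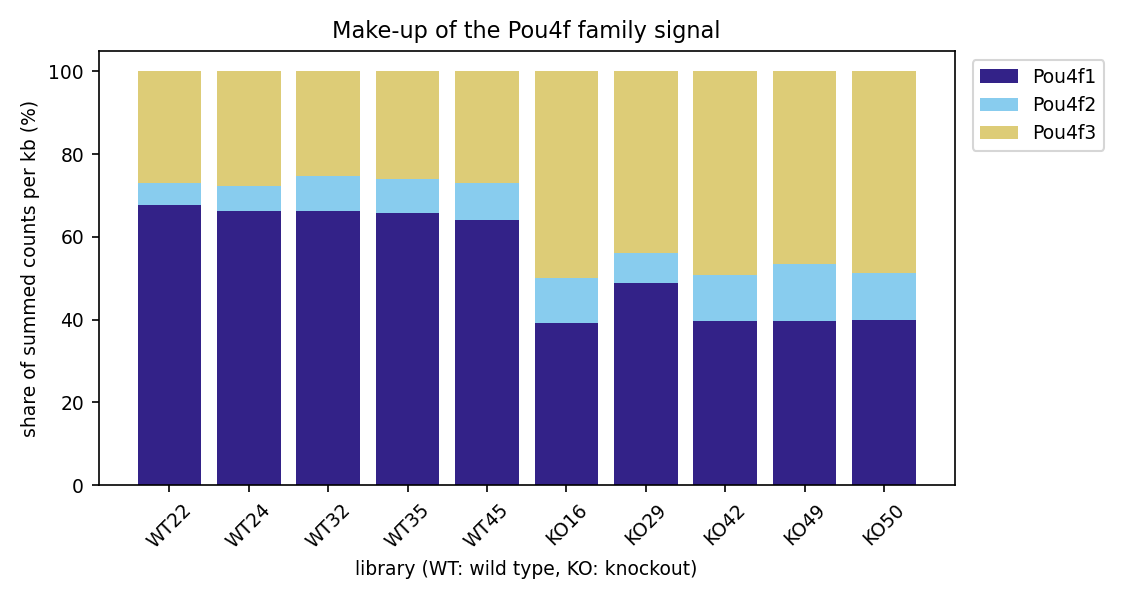
Share of each gene (y axis, percent) in the summed counts per kilobase of Pou4f1, Pou4f2 and Pou4f3, for each library (x axis). Pou4f1 holds 64.1% to 67.6% in the 5 wild-type libraries and 39.1% to 48.8% in the 5 knockout libraries.

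The ISL pair gave a different picture. The ratio of Isl2 to Isl1 counts was 0.212, 0.497, 0.196, 0.236 and 0.227 in the knockout libraries and 0.337, 0.472, 0.313, 0.335 and 0.320 in the wild type. Apart from knockout 29, which had the highest ratio of all 10, the knockout libraries were below all wild-type libraries. The log2 difference was -0.45 (exact two-sided permutation p = 0.151, adjusted over the 3 ratios 0.226). Without knockout 29 it was -0.69. The exact permutation p was then 0.00794 (0.0119 adjusted), the smallest that 4 against 5 allow. That p was fixed once the only overlapping library was left out, so it adds no support.

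**Figure D3:**
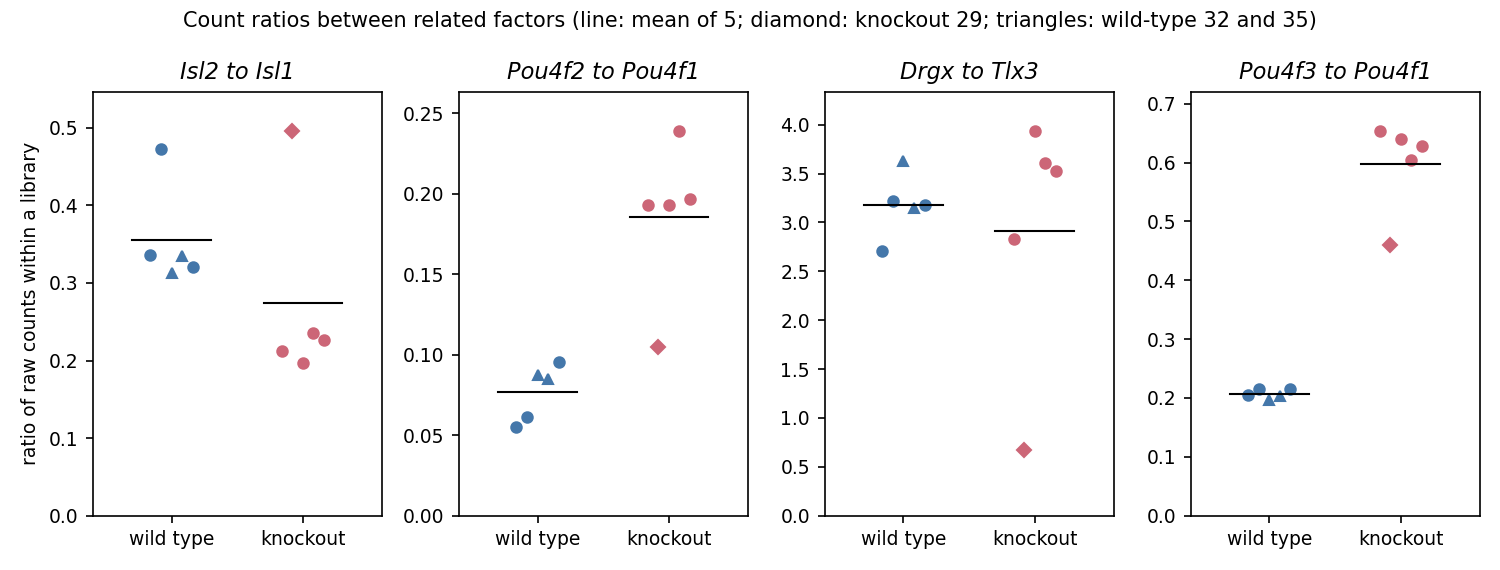
Ratio of raw counts within each library (y axis) for 4 pairs of genes, by genotype (x axis), with the mean of 5 libraries as a line. The Pou4f2 to Pou4f1 and Pou4f3 to Pou4f1 ratios of all knockout libraries lie above all wild-type libraries, while the Isl2 to Isl1 groups overlap only through knockout 29 (diamond). The Drgx to Tlx3 groups overlap with or without it.

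Among the TLX genes, Tlx3, a selector of glutamatergic over GABAergic fate in dorsal neurons that is also needed in sensory ganglia, depended most on 1 library. It was at 36.9, 222, 28.6, 27.2 and 41.7 CPM in the knockout and at 51.4, 65.4, 70.6, 85.6 and 42.6 CPM in the wild type. All 4 knockout libraries other than 29 lay below the lowest wild-type library by a small margin on this scale, and knockout 29 was higher than any other library by more than 2-fold. The log2 fold change was 0.18 (SE 0.55, adjusted p = 0.912) and turned to -0.87 (SE 0.22, adjusted p = 0.140) without knockout 29. Tlx1, a paralog with an early role in spleen formation, was at 13.8, 33.6, 8.43, 8.40 and 13.4 CPM in the knockout libraries. The wild-type libraries held 13.8, 19.2, 18.05, 20.8 and 10.9 CPM, so that the groups overlapped and knockout 29 was highest of all. Its log2 fold change was -0.08 (SE 0.37, adjusted p = 0.937), and -0.54 (SE 0.25, adjusted p = 0.386) without knockout 29. The third gene of the family, Tlx2, ranged over 19.4 to 98.2 CPM (knockout) and 28.98 to 58.0 CPM (wild type), with the highest value again in knockout 29 (log2 fold change -0.25, SE 0.44, adjusted p = 0.829).

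Drgx, the paired-type factor of nociceptive circuits, was at 104, 149, 113, 98.2 and 147 CPM in the knockout and at 139, 210.4, 256, 269 and 136 CPM in the wild type. Knockout 29 and 50 lay among the lower wild-type libraries. Its log2 fold change was -0.72 (SE 0.22, adjusted p = 0.217 with edgeR), the lowest adjusted p of the 9, and it was the gene that knockout 29 moved least (-0.77 without it). The ratio of Drgx to Tlx3 counts was 2.83, 0.673, 3.94, 3.61 and 3.53 in the knockout and 2.705 to 3.63 in the wild type, a log2 difference of -0.35 (exact two-sided permutation p = 0.825, adjusted 0.825). Hmx1, a factor of cranial sensory ganglia and of the mesenchyme that forms the outer ear, was at 19.9, 61.8, 13.6, 18.8 and 18.8 CPM in the knockout. In the wild type it was at 36.8, 58.1, 45.9, 48.9 and 26.1 CPM. Knockout 29 was the highest library of all 10 and the other 4 knockout libraries were the lowest 4 (log2 fold change -0.70, SE 0.39, adjusted p = 0.464; without knockout 29, -1.25, SE 0.24, adjusted p = 0.0566). Hmx1 shares 175 exonic bases with a gene model on the other strand in GENCODE M21, and whether the counts used strand is unknown here. The paralogs Hmx2 and Hmx3 were at most at 0.381 and 0.315 CPM in any library and were not tested.

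Without knockout 29, 4 of the 9 genes (Isl1, Isl2, Pou4f1 and Hmx1) had every knockout library below every wild-type library, where 3.25% of all tested genes did and 5.81% had no overlap in either direction. Tlx3 overlapped narrowly, at up to 43.1 CPM in the knockout and from 42.1 CPM in the wild type once the libraries were rescaled. Isl2 was then past the threshold and the other 8 were not; 0.603% of all genes were past it. Leaving a library out because it looked different is a choice made after its values were seen.

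**Figure D4:**
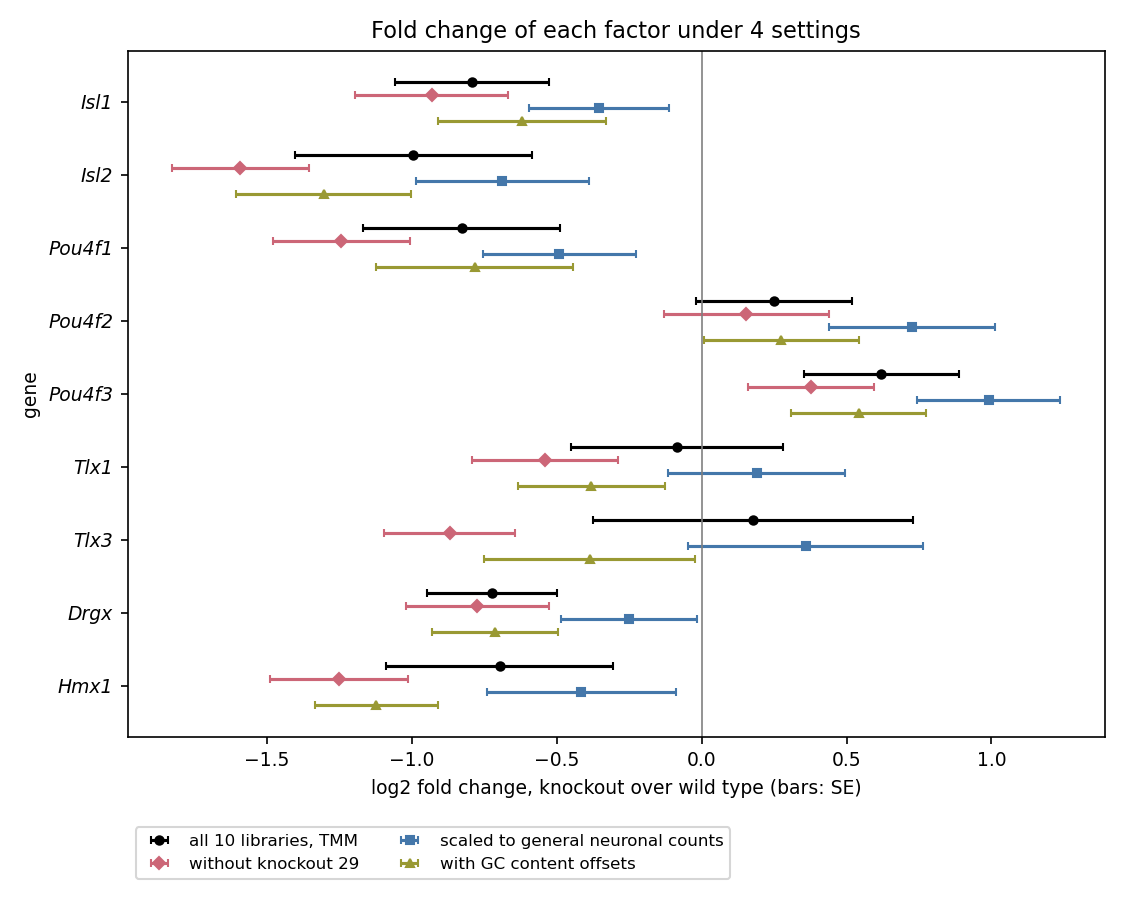
Log2 fold change of each gene, knockout over wild type (x axis, bars are the SE), with all 10 libraries, without knockout 29, scaled to general neuronal counts, and with offsets for GC content. Pou4f3 and Pou4f2 lie above 0 in all 4, and Tlx3 moves from 0.18 to -0.87 without knockout 29. The values scaled to general neuronal counts carry the shift of all genes (median 0.37).

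Knockout 29 also differed from the other libraries in base composition. Over 17947 tested genes, the difference in log2 CPM between knockout 29 and the mean of the other 4 knockout libraries correlated with the GC content of the longest transcript (Pearson r = 0.52, a description across genes, which are not independent). In the other 9 libraries, each against the rest of its group, r was between -0.23 and 0.13. The median difference was -0.63 for genes under 45% GC and 0.73 for the 790 genes at 60% or more. The 4 homeodomain genes with the highest GC content were Hmx1 (68.6%), Tlx3 (67.3%), Tlx1 (61.3%) and Isl2 (59.98%), against a median of 49.5% over all genes. They were higher in knockout 29 by 1.81, 2.74, 1.64 and 1.91 on the log2 scale. Drgx (51.2% GC), Pou4f2 (50.5%) and Isl1 (45.7%) were higher by 0.39, 0.55 and 0.72. Pou4f1, at 49.8% GC, was nevertheless higher by 1.52, and Pou4f3 (53.7%) by 1.06. Over the 9 genes Pearson r was 0.81 and Spearman rho 0.72, as a description. With offsets for GC content in each library, an alternative chosen after the values were seen, the log2 fold change was -1.12 for Hmx1 (SE 0.21, adjusted p = 0.0483), -1.30 for Isl2 (SE 0.30, adjusted p = 0.0995) and -0.39 for Tlx3 (adjusted p = 0.723). Hmx1 was then the 1 of the 9 past the threshold, where 0.529% of all genes were. Sox10, the glial gene named in the Venus label, was also highest in knockout 29, at 3764 CPM against 390.1 to 844 CPM in the other knockout libraries. The summed level of 6 glial markers was 5045 CPM in knockout 29 against 1352 to 1913 CPM in the other knockout libraries. The part of base composition and of glial content in the values of knockout 29 was not tested.

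**Figure D5:**
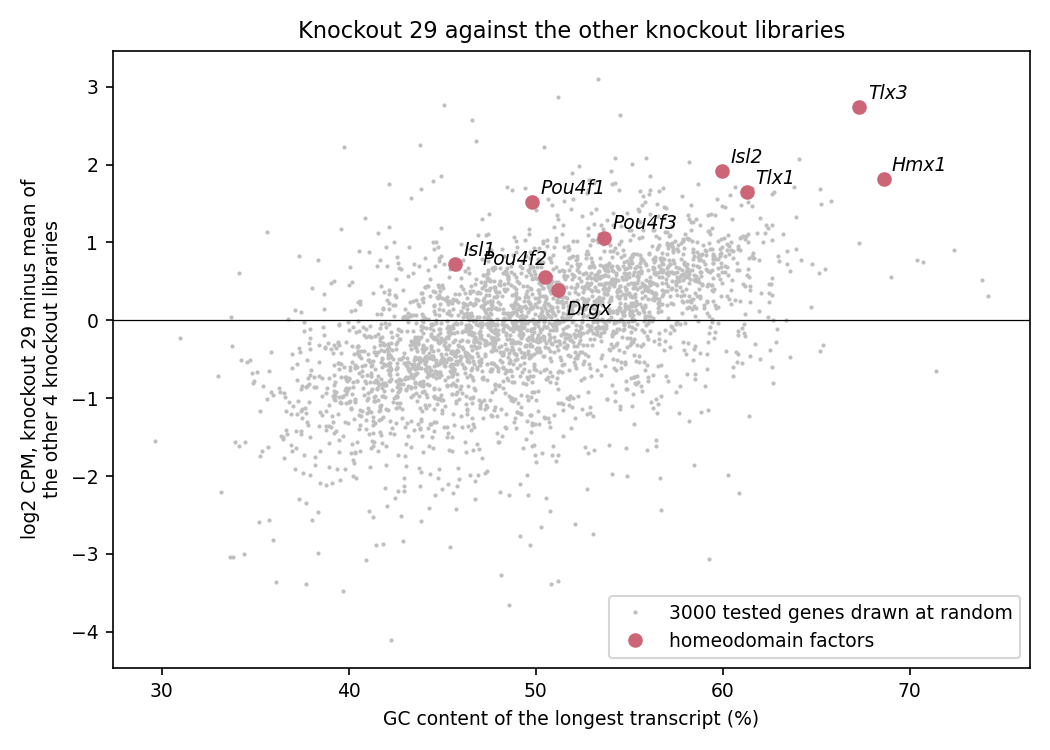
GC content of the longest transcript (x axis, percent) against the log2 CPM of knockout 29 minus the mean of the other 4 knockout libraries (y axis), for 3000 tested genes drawn at random (grey) and the 9 homeodomain genes. All 9 lie above 0, with Tlx3 (2.74) highest, and the grey points rise with GC content.

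The 11 general neuronal genes summed to 4473 to 9421 CPM for the knockout against 6203 to 11256 CPM for the wild type, with overlap. Of the 11, 0 passed the threshold (edgeR), where 0.467% of all genes did. At an unadjusted p under 0.05, 3 were lower and 0 higher, where 6.73% of all genes were lower. Their median log2 fold change was -0.36, and 1 of the 11 had no overlap between the groups, where 4.21% of all tested genes had none. Scaled to the sum of these 11 genes, the log2 fold change was -0.35 for Isl1, -0.69 for Isl2, -0.49 for Pou4f1, -0.25 for Drgx and -0.41 for Hmx1. It was 0.99 for Pou4f3, 0.73 for Pou4f2, 0.19 for Tlx1 and 0.36 for Tlx3. The median over all genes moved from -0.03 to 0.37 with this scaling. Values relative to that median largely undo the scaling and do not measure change against neuronal content. They were -0.72 for Isl1, -1.06 for Isl2, -0.86 for Pou4f1, -0.62 for Drgx and -0.78 for Hmx1, and 0.62 for Pou4f3 and 0.36 for Pou4f2. Tlx1 was at -0.18 and Tlx3 at -0.01. Per 1000 general neuronal counts, Pou4f3 had 5.88 to 11.04 in the knockout and 3.83 to 5.48 in the wild type. It was the 1 of the 9 with no overlap on this scale, as were 2.83% of all tested genes. It did not pass the threshold (adjusted p = 0.122 with edgeR), where 0.305% of all genes did. Values on this scale carry the shift of all genes, and in CPM the Pou4f3 groups overlapped. Isl1 had 37.9 to 64.5 against 47.3 to 80.7, and Pou4f1 8.98 to 23.96 against 17.7 to 26.8.

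Per kilobase of exon, the wild-type order of levels was Isl1 (159 ± 58.8 CPM per kb), Isl2 (99.0 ± 29.4), Drgx (48.5 ± 15.1), Pou4f1 (41.5 ± 11.6), Tlx3 (41.2 ± 10.9), Hmx1 (27.2 ± 7.68), Pou4f3 (16.7 ± 4.24), Tlx1 (7.74 ± 1.92) and Pou4f2 (4.67 ± 1.82; SD, n = 5). Only the steps from Isl2 to Drgx and from Pou4f3 to Tlx1 were larger than the SDs of both genes added. In the knockout no step between neighbours was. There the mean level of Pou4f3 (25.5 ± 10.7 CPM per kb) was next above that of Pou4f1 (23.4 ± 14.3). Exon lengths came from GENCODE M21 and may differ from those of the annotation the counts were made with.

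How the 9 genes varied together over the libraries depended on knockout 29. Over all 10 libraries the correlation of log2 CPM was 0.98 between Isl2 and Pou4f1 and 0.96 between Tlx1 and Tlx3. It was 0.56 between Drgx and Tlx3 and 0.62 between Isl1 and Tlx1, no closer than Pou4f3 with Tlx1 or Tlx3 (0.63 each). Without knockout 29 (9 libraries, both genotypes), the correlation of log2 CPM was 0.98 between Isl2 and Pou4f1, 0.98 between Pou4f1 and Tlx3, 0.92 between Isl1 and Isl2 and 0.95 between Drgx and Tlx3, and the lowest among the 7 genes other than Pou4f2 and Pou4f3 was 0.74 (Isl1 and Tlx1). Between one of the 7 and Pou4f2 or Pou4f3 it ran from -0.17 to 0.39. It was 0.75 between Pou4f2 and Pou4f3, and between Pou4f3 and Pou4f1 it was -0.04. The libraries differ in tissue content as described above, and its part in these correlations was not tested, so these values describe the libraries only. Among 13893 other genes, the most alike to Isl1 over the 10 libraries were Stx2, Mcc and Eml1 (r = 0.97 to 0.99), and to Drgx Fbxo9, Nos1 and Mmd2 (0.96 to 0.99). For Isl2 they were Pou4f1, Hs3st2 and Syt2 (0.98 each) and for Pou4f1 Coro2a, Isl2 and Hs3st2 (0.98 to 0.99). For Pou4f2 they were Shc4, Nipal3 and Atp6ap1l (0.95 to 0.96), and for Pou4f3 Lrfn2, Grb14 and Txnrd2 (0.97 to 0.98). Tlx1 was most like Psmd2, Mapk8ip1 and Nudt18 (0.98 to 0.99), Tlx3 most like Chst8, Ypel3 and Dohh (0.98 to 0.99), and Hmx1 most like Med10, Mreg and Necab2 (0.97 to 0.99). With the 2 libraries farthest from each gene's median left out (8 libraries), r stayed at 0.88 or above for these pairs, the lowest being Pou4f3 with Txnrd2. The pairs were picked for their high r over the same libraries, so this outcome was largely fixed and adds no support.

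Among genes that are known to need Pou4f1 or Isl1 in sensory ganglia, Runx1 and Gal passed the threshold, and Ntrk3, Runx3 and Avil did not. Runx1, the transcription factor of the nociceptor lineage, fell by 2.47 (adjusted p = 0.00127) and the neuropeptide gene Gal by 3.06 (adjusted p = 0.00223) on the log2 scale. Ntrk3, the neurotrophin 3 receptor, had 348 ± 126 CPM (knockout) and 158 ± 51.4 CPM (wild type; adjusted p = 0.166), and Runx3, of proprioceptors and some mechanoreceptors, was at 41.3 ± 29.6 and 15.5 ± 3.35 CPM (adjusted p = 0.155). Avil, a gene of nearly all sensory neurons, was at 260 ± 67.1 and 258 ± 121 CPM (SD, n = 5 each; adjusted p = 0.993 with edgeR). Of 4 genes that Pou4f1 is known to hold down, 1 rose and 3 did not pass (median -1.01). The gene that rose was Gata3, a zinc finger factor, by 2.07 on the log2 scale (SE 0.33, adjusted p = 0.0226), from 1.25 to 2.69 CPM among wild-type libraries to 4.89 to 12.04 CPM among knockout libraries. Neurod1 was at 42.8 ± 29.6 and 85.6 ± 26.4 CPM, and Msc at 4.99 ± 2.01 and 10.2 ± 2.24 CPM.

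LIM cofactors, the proteins through which ISL factors assemble with partners, were not called. Of 10 tested, 0 passed (median log2 fold change 0.23), and 1, Lmo4, had an unadjusted p under 0.05 (edgeR), where 13.1% of all genes did. Another 1 of the 10 had no overlap between the groups, where 4.21% of all tested genes had none. Lmo4, which competes for the adaptor Ldb1, had 156 ± 36.0 CPM (knockout) and 85.6 ± 40.5 CPM (wild type) (log2 fold change 0.86, SE 0.29, adjusted p = 0.250). Ldb1 itself was at 327 ± 132 and 280.2 ± 29.7 CPM, and Ssbp3 at 282 ± 106 and 259 ± 46.9 CPM (SD, n = 5 each). Of 20 other transcription factors of sensory neurons, Runx1 and Mafa fell, 0 rose and 18 did not pass (median -0.28). Mafa, of early mechanoreceptors, was at 0.454 to 2.82 CPM against 7.21 to 19.5 CPM (adjusted p = 0.0287). Ebf1 was at 241 ± 59.0 and 405 ± 91.7 CPM (adjusted p = 0.166 with edgeR). Of the 20, 5 had no overlap between the groups, where 4.21% of all tested genes had none. Both directions occurred among these, with Ebf1 lower in the knockout and Runx3 higher. Ebf1 was separated narrowly, at most 315 CPM in the knockout and at least 319 CPM in the wild type. Of 6 tested channels and receptors of nociceptors and thermoreceptors, Scn10a and Trpv1 fell and 4 did not pass (median -1.23).

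Markers of other cells that express some of the 9 genes differed between libraries. The summed level of 5 hindbrain and dorsal central markers was 6.97 to 186 CPM for the knockout (highest in knockout 16) against 0.751 to 57.2 CPM. Of the motor neuron markers, cells in which Isl1 and Isl2 are active, the acetylcholine transporter gene Slc18a3 was at 10.08, 3.86, 2.38, 0.869 and 1.36 CPM in knockout 16, 29, 42, 49 and 50 against 0.367 to 1.02 CPM, a log2 difference of 2.45 (SE 0.60, adjusted p = 0.111). Chat, which makes acetylcholine, was at 0.384 to 4.001 CPM for the knockout against 0.0667 to 0.671 CPM, a log2 difference of 2.41 (SE 0.74, adjusted p = 0.212). The choline transporter gene Slc5a7 was at 4.96 to 19.4 CPM against 5.77 to 9.46 CPM (adjusted p = 0.400). All 3 were highest in knockout 16 and overlapped between the groups. Mnx1, a marker of spinal motor neurons, was at most at 0.0667 CPM in any library and was too low to be tested. Pituitary and oral ectoderm markers, among tissues in which Isl1 is active, summed to 427 CPM in knockout 49 and 48.6 CPM in wild-type 45 and were otherwise at most at 7.16 CPM. Their part in the levels of the homeodomain genes was not tested.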

How the data were processed

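RNA-seq counts were analysed for 10 libraries of trigeminal ganglia, 5 Prdm12-/- and 5 Prdm12+/+, grouped by the genotype label. The deposited files hold raw counts per Ensembl gene ID. Per the submitters' processing notes, the tools were featureCounts 1.5.0-p1, STAR 2.7.10a and bcl2fastq 2.20.0.422; GRCm39 and mm10 are both named, without roles. The annotation and the strand setting behind the counts were not stated. Symbols were matched for 52081 of 55414 IDs.

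Genes were kept with filterByExpr (minimum count 10), scaled with TMM and tested with edgeR 4.0.16 (glmQLFit and glmQLFTest, R 4.3.3; tested on simulated data), with Benjamini-Hochberg adjustment over 18005 genes and a threshold of 0.05. A positive log2 fold change means higher in the knockout. Alternatives used limma 3.58.1 and DESeq2 1.42.0. Log2 CPM for correlations had a prior count of 2. Ratios were log2 of counts plus 0.5 and were compared with exact permutation tests over 252 assignments. A chi-square of at least 9.88 per gene in all 20 within-group pairs showed no library deposited again. Replicate numbers differ between groups, so nothing was paired. Total counts set a floor (3 counts) of 0.0889 to 0.869 CPM, for counting error only. The 9 genes, the gene lists and the tests were chosen with earlier results of these data known. Named besides the 9 genes are paralogs, list members past the threshold or among the 3 most abundant of their list, a few chosen after their values were seen (Gfi1, Atoh1, Runx3, Mnx1, Sox10), and for likeness the 3 genes of mean CPM of at least 1 with the highest Pearson r. Some members of the fixed lists, and the counts and sums that include them, are not reported here. Within-genotype correlations over 5 libraries were not used.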

Additional observations from a re-analysis of the deposited data

Results flagged for a closer look

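Of 26 sets of 5 libraries examined (each of the 9 genes and 4 ratios in each genotype), 8 held a library far from the other 4, where chance gives about 1 in 20. In 7 of the 8 it was knockout 29. Its levels were far above those of the other knockout libraries for Isl2 (262 CPM), Pou4f1 (226 CPM), Tlx1 (33.6 CPM), Tlx3 (222 CPM) and Hmx1 (61.8 CPM). Its ratio of Isl2 to Isl1 counts, 0.497, was far above the other 4 and its ratio of Pou4f3 to Pou4f1 counts, 0.461, far below. In the wild type, library 24 stood apart in the ratio of Isl2 to Isl1 counts (0.472).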

How the results depend on the processing

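The count of homeodomain genes past the threshold was 0 with RLE scaling, scaling to general neuronal counts, both other filters, DESeq2, and without wild-type 32 and 35 or knockout 29 and 49. It was 4 (Isl1, Isl2, Pou4f1 and Hmx1, all lower) with limma voom and sample quality weights, which called 13.0% of all genes, and 1 with GC content offsets (Hmx1). With each library left out in turn it ranged from 0 to 1, the 1 being Isl2 without knockout 29. Over all genes, 17 were higher and 67 lower, against 350 and 245 with DESeq2, 1264 and 1080 with voom, 55 and 102 with all genes of at least 1 count, 21 and 34 with neuronal scaling, 6 and 47 without knockout 29 and 49, 0 and 19 without wild-type 32 and 35, and 2 to 35 and 27 to 88 with 1 library left out.

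Isl1, Isl2, Pou4f1, Drgx and Hmx1 stayed below 0 and Pou4f2 and Pou4f3 above 0 in all 19 alternatives each. Without wild-type 32 and 35, Isl1 was at -0.29, Isl2 at -0.60, Pou4f1 at -0.48, Drgx at -0.36 and Pou4f2 at 0.77. The sign of Tlx3 turned with voom (-0.80), GC content offsets (-0.39) and without knockout 29 and 49 (-0.82), and ranged from -0.87 to 0.38 with 1 library left out. That of Tlx1 turned without wild-type 32 and 35 (0.14) and ranged from -0.54 to 0.078 with 1 library left out. Its value of 0.19 with neuronal scaling carries the shift of all genes, relative to which it was at -0.18. The Pou4f2 to Pou4f1 difference ranged from 1.14 to 1.45 with 1 library left out and kept its call. Without wild-type 32 and 35 it was 1.39 (adjusted exact p = 0.0536, as small as that design allows for 1 of 3 ratios). The Pou4f3 to Pou4f1 difference ranged from 1.48 to 1.63 over its 14 alternatives, which use the same data that led to its choice. The Isl2 to Isl1 difference was -0.73 without knockout 29 and 49 and ranged from -0.69 to -0.35 with 1 library left out. Its adjusted exact p of 0.0268 without knockout 29 and 49 was fixed once the overlapping library was left out. Drgx to Tlx3 turned to 0.10 without knockout 29 and 49 and ranged from -0.51 to 0.12 with 1 library left out. No paired analysis was possible because the groups share no replicate number. Depth limits knockout 49 most, where 3 counts equal 0.869 CPM.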
